A study of Mus musculus with 18 samples.

Results

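Described here are 10 transcription factors that govern the making of fat cells or their heat production, Cebpa, Cebpb, Cebpd, Bcl6, Atf5, Klf5, Klf15, Zfp423, Zfp516 and Irf4. They were picked by name, in knowledge of earlier results of these data but with no threshold on a measured value, and make up 10 of the 18193 genes and 17 of the 45037 non-control probe sets on the array. Intensities were read on 18 Affymetrix arrays, 3 in each of 6 groups, from 10-week-old female Sv129 mice that spent 10 days at either 6°C or 28°C. The groups were interscapular brown adipose tissue (BAT) at 6°C and at 28°C, subcutaneous inguinal white adipose tissue (sWAT) at 6°C and at 28°C, and mesenteric white adipose tissue (mWAT) at 6°C and at 28°C. No allele or drug differs between groups, and all mice were caged singly. Depot and temperature were taken from the sample titles, because the separate tissue and temperature fields contradict the titles and descriptions for some arrays. Whole tissue was hybridised, so fewer cells of a type and less RNA per cell cannot be told apart. The study kept 4 mice at each temperature and collected every depot from them, so arrays of different depots share animals, but nothing in the labels says which arrays came from one mouse. All fits treat the arrays as independent, and p-values measure the spread between these arrays only.

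Adipogenesis runs as a relay of transcription factors. CEBPB and CEBPD are switched on first when a precursor is stimulated, and they turn on CEBPA and PPARG, which then hold each other active and maintain the genes of the mature fat cell. KLF5 and KLF15, both Krüppel-like zinc-finger proteins, and the bZIP factor ATF5 act on that relay, while the zinc-finger protein ZFP423 commits precursors to the fat lineage. In brown and beige fat, sympathetic nerves raise cAMP, which acts on the gene of uncoupling protein 1 (Ucp1) in part through CREB and ATF proteins, with CEBPB, IRF4 and ZFP516 among the factors reported to favour heat production. BCL6 is a repressor best known from germinal centre B cells and is also present in fat cells.

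Before the members are described, the tissues were checked against markers. Adipoq, the gene of the fat cell hormone adiponectin, had group means of 13.52 to 13.76 log2 intensity in all 6 groups. Ucp1 averaged 14.36 in BAT at 6°C, 14.03 in BAT at 28°C, 13.80 in sWAT at 6°C, 10.15 in sWAT at 28°C, 9.50 in mWAT at 6°C and 6.48 in mWAT at 28°C, and Zic1, a marker of interscapular brown fat, was at 9.87 and 9.68 in BAT at 6°C and 28°C and at or below 3.21 in both white depots. Other cell types differed as well, since the mean of 8 T cell genes was 6.20 to 6.45 in BAT at 6°C against 9.48 to 10.27 in sWAT at 6°C. Both mWAT arrays numbered 3 stand apart, with T cell means of 6.93 at 6°C and 6.97 at 28°C, while the other mWAT arrays had 11.11 and 11.01 at 6°C and 10.95 and 11.05 at 28°C, and over all probe sets their r was 0.991 to one another, against 0.949 to 0.969 to the remaining 4 arrays of that depot. Member results against mWAT that passed, or that pass only without them, are given with and without both. Other signals were uneven as well: the mean of 7 pancreas acinar genes was 14.08 on mWAT 6°C array 2, 10.09 on mWAT 28°C array 1 and 10.64 on BAT 6°C array 3, against at most 7.16 elsewhere, and mWAT 6°C array 2 also had the highest neutrophil mean, 9.12 against at most 7.42 elsewhere. Array medians were 6.97 to 7.20 log2 intensity, and no detection calls were used, so the size of differences among values below that range is not measured. Centring each array on its median moved the median of all probe sets by 0.13 to 0.19 in the comparisons of BAT with either white depot and by at most 0.06 in size in the rest.

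The first question was which of these factors differed between 6°C and 28°C within a depot. At an adjusted p below 0.01 (limma, Benjamini-Hochberg over all probe sets) none of the 10 members passed in any single depot on the probe set that stands for each gene, nor did any with a variance trend and robust estimates, while a dimmer Cebpb probe set passed in BAT. In BAT, where 2.8% of all genes passed as higher and 2.53% as lower at 6°C, 4 members had an unadjusted p under 0.05, and 7 had arrays that did not overlap between 6°C and 28°C, 3 of them higher and 4 lower, against 39.9% of all genes. The share of genes that passed was 0.72% higher and 0.022% lower in sWAT, and 0.0055% higher and 0% lower in mWAT. An unadjusted p under 0.05 was reached by 3 members in sWAT and 2 in mWAT. All shares of genes that passed are at the adjusted threshold. The share of genes at an unadjusted p under 0.05 was not counted, so member counts at that level have no background beside them. Median log2 differences over the 10 members were -0.08 in BAT, 0.25 in sWAT and 0.21 in mWAT, beside 0.01, 0 and 0.01 over all genes. Averaged over the 3 depots, a contrast added after the values had been seen, Klf15 alone passed on the probe set that stands for each gene, in a background of 2.7% of genes higher and 0.792% lower, and 5 members had an unadjusted p under 0.05. The 10 values of this contrast ranged from -0.39 for Bcl6 to 0.83 for Klf15, and the dimmer of the Cebpb probe sets passed as well, at 0.74 ± 0.15 (adjusted p 0.0066). No member's cold response was shown to differ between depots, where 0.467% of genes passed for BAT against sWAT, 0.566% for BAT against mWAT and 0% for sWAT against mWAT. Unadjusted p-values under 0.05 were reached there by 2, 4 and 0 members in the same order.

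**Figure D1:**
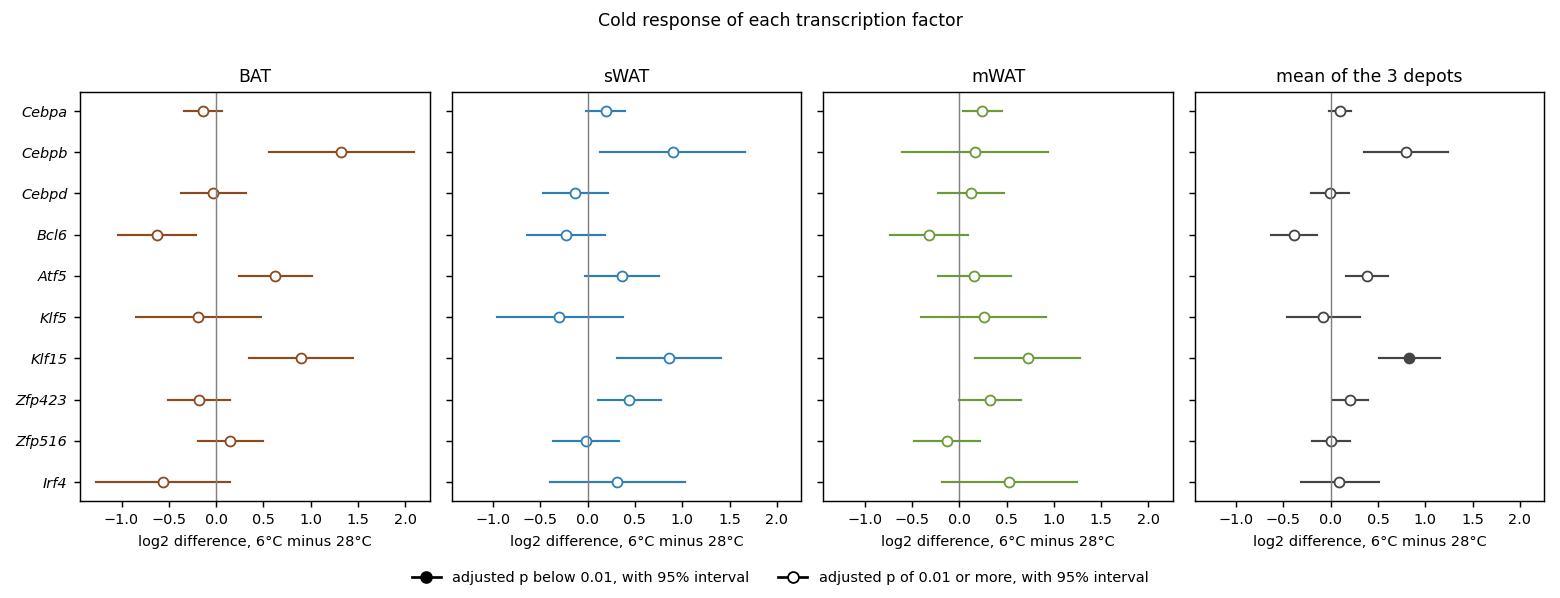
Log2 difference of 6°C minus 28°C for the 10 factors in BAT, sWAT, mWAT and as the mean of the 3 depots; points are limma estimates from 3 arrays per group with 95% confidence intervals, and filled points passed an adjusted p of 0.01. Klf15 is positive in every panel, from 0.73 in mWAT to 0.90 in BAT, and is filled in the mean panel only, while Cebpb runs from 1.32 in BAT to 0.17 in mWAT.

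More members passed between depots than between temperatures. At 28°C, BAT against sWAT had 2 members higher, Bcl6 and Zfp423, and 2 lower, Cebpd and Klf5, beside 14.5% of genes higher and 13% lower. BAT against mWAT at 28°C had 5 higher, Cebpa, Cebpb, Bcl6, Atf5 and Zfp423, and Zfp516 lower, beside 17.7% and 14.8% of genes. At 6°C, BAT had Cebpb higher and Cebpd and Klf5 lower than sWAT, against 13.4% of genes in each direction, and Cebpb, Atf5 and Zfp423 higher and Cebpd, Klf5 and Zfp516 lower than mWAT, against 21.3% and 18.9%. Between the white depots, sWAT at 28°C had Zfp516 lower than mWAT, with 3.05% of genes higher and 4.82% lower, and sWAT at 6°C had Atf5 higher and Zfp516 lower, with 5.17% and 5.01%. Of these counts, the 5 members higher in BAT than in mWAT at 28°C stand well above their share of 17.7%. The others lie within about 2 genes of what the shares give for 10 genes. This describes the list and is not a test. The study had already named Cebpb, Bcl6 and Atf5 as higher in brown than in white fat at 28°C. Members were chosen with earlier results of these data known, so the list was not blind to this excess. The comparisons share arrays, BAT at 28°C for one serving in its cold response and against both white depots, and their counts are not independent. Fitting only the 2 groups compared left 3 members past the threshold in BAT against mWAT at either temperature, where 20.3% of genes passed at 28°C and 24.3% at 6°C, and 0 in sWAT against mWAT at either temperature, where 3.19% and 3.63% passed. The calls lost in that fit, at adjusted p-values of 0.01 to 0.048, were Zfp423 for BAT against sWAT and Cebpa, Cebpb and Bcl6 for BAT against mWAT at 28°C, Cebpd for BAT against sWAT and Cebpd, Zfp423 and Zfp516 for BAT against mWAT at 6°C, and all 3 calls of sWAT against mWAT.

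**Figure D2:**
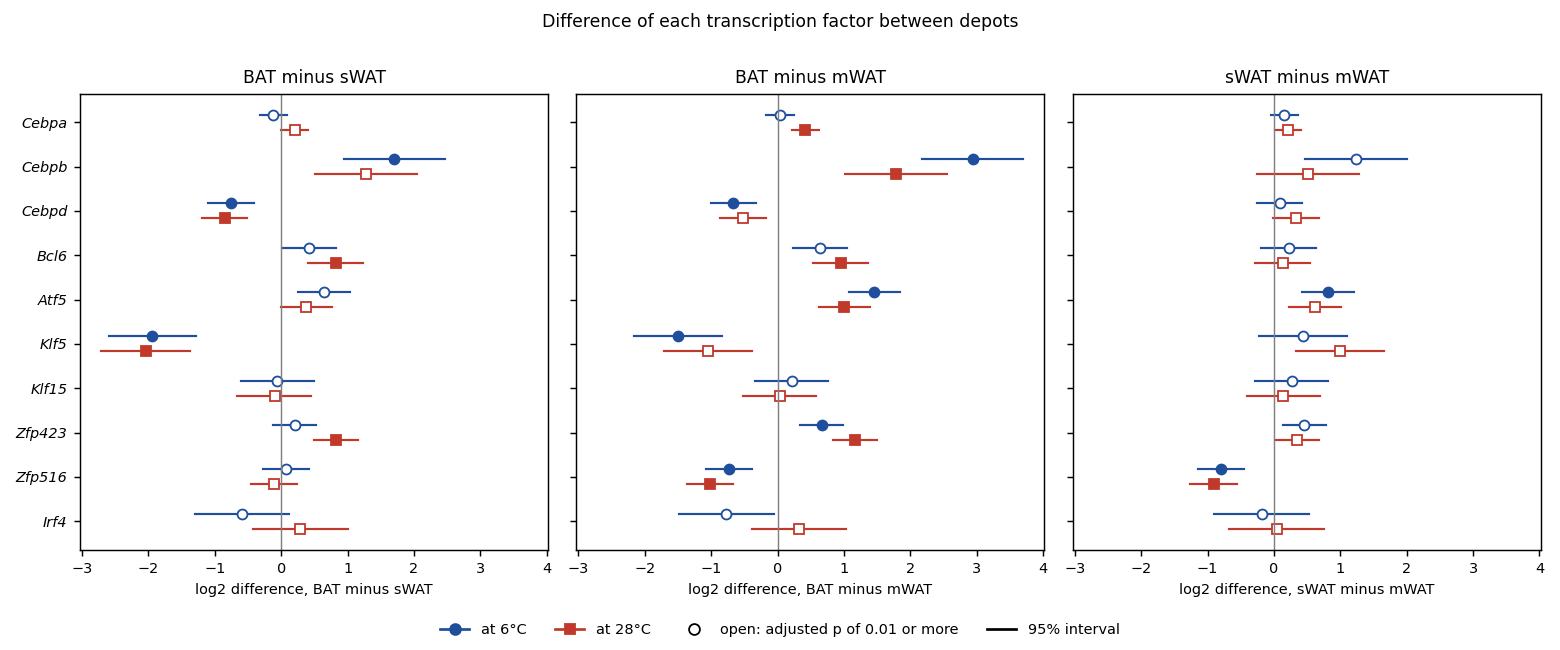
Log2 differences between depots at 6°C (blue circles) and 28°C (red squares) with 95% confidence intervals, from 3 arrays per group; filled symbols passed an adjusted p of 0.01. Cebpb lies to the right and Klf5 to the left in both BAT panels, and Zfp516 lies to the left in both panels against mWAT, at -0.73 and -1.02 for BAT and -0.80 and -0.91 for sWAT at 6°C and 28°C.

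Cebpb, the early C/EBP of the relay and a target of cAMP signalling, spanned the widest range of group means among the members, 3.11 log2 units. In BAT at 6°C its arrays were at 11.58, 11.60 and 11.68, against 11, 10.24 and 9.64 in BAT at 28°C. The cold arrays were tightly grouped above all 3 arrays at 28°C, which were spread over more than 1 log2 unit. That difference of 1.32 ± 0.36 (SE, 95% interval 0.56 to 2.09) missed the threshold at an adjusted p of 0.026, and ranged from 1 to 1.68 when single arrays were left out, passing at an adjusted p of 0.0097 only without BAT 28°C array 1. The dimmer Cebpb probe set did pass, at 1.60 ± 0.25 (3.03-fold, adjusted p 0.001), one of 5.28% of all probe sets that did. The mean of both probe sets passed as well, at 1.462 ± 0.295 (adjusted p 0.0048), in a setting where 6% of all genes did. The mean of 9 skeletal muscle genes was lowest on the BAT 28°C array with the most Cebpb, at 8.90, 13.03 and 12.62 on arrays 1, 2 and 3, while among the BAT arrays at 6°C, where Cebpb hardly varied, it was 7.74, 10.65 and 8.60. After removal of group means, Cebpb and these genes had r = -0.73 over the 18 arrays, and the part of muscle RNA in the Cebpb difference was not tested.

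In sWAT, Cebpb was at 10.40, 9.35 and 10.00 at 6°C against 8.69, 8.77 and 9.60 at 28°C, with 1 array of each group overlapping, and the difference of 0.90 ± 0.36 had an adjusted p of 0.30. In mWAT it was at 8.50, 8.27 and 9.28 at 6°C against 8.42, 8.33 and 8.79 at 28°C, interleaved, with a difference of 0.17 ± 0.36. The BAT response exceeded that of mWAT by 1.15 ± 0.51 (adjusted p 0.28) on this probe set and by 1.53 ± 0.36 (0.038) on the dimmer one, and neither passed. BAT held more Cebpb than either white depot: 3.25-fold more than sWAT and 7.66-fold more than mWAT at 6°C (adjusted p 0.002 and 1.1e-05), and 3.44-fold more than mWAT at 28°C (0.0011). Without both mWAT arrays 3 the log2 differences from mWAT were 3.23 ± 0.38 at 6°C and 1.92 ± 0.38 at 28°C, and both passed. Without mWAT 6°C array 2 the 6°C difference was 2.73 ± 0.40 (9.7e-05). Against sWAT at 28°C the difference of 1.27 ± 0.36 (0.012) did not pass, though the dimmer probe set did at 1.22 ± 0.25 (0.0017). The call against sWAT at 6°C was lost without sWAT 6°C array 2, at 1.42 ± 0.38 and an adjusted p of 0.013.

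**Figure D3:**
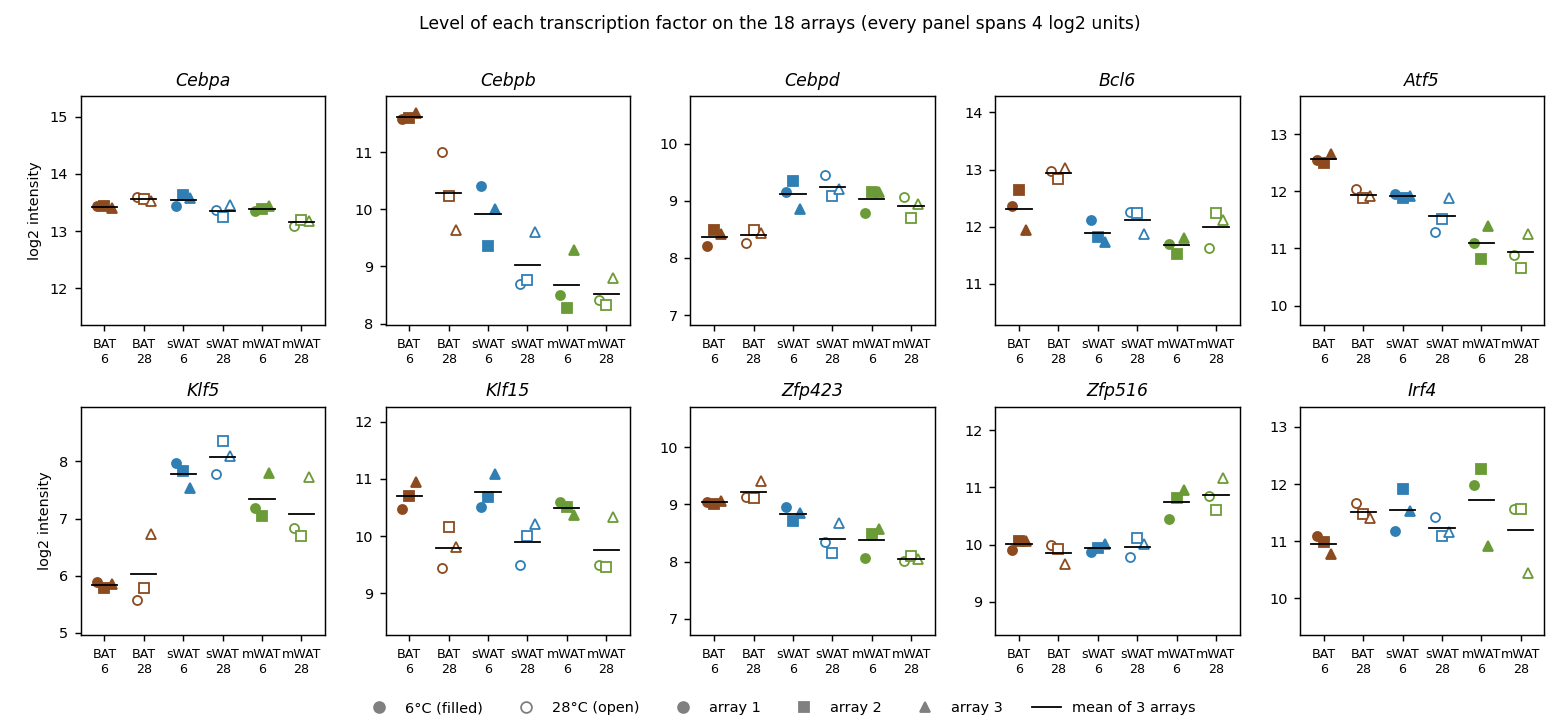
Log2 intensity of each factor on the 18 arrays, by group, with a symbol for each array number, filled at 6°C and open at 28°C, and a bar at the group mean (n = 3); each panel spans 4 log2 units on its own offset. Cebpb and Atf5 are highest in BAT at 6°C, Klf5 is lowest in the BAT groups, Zfp516 on its brighter probe set is highest in mWAT, and Irf4 on the mWAT arrays numbered 3 lies below its companions.

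Atf5, a bZIP factor that works with CEBPB on the Cebpa promoter in cultured preadipocytes and also serves the mitochondrial stress response, had a profile close to that of Cebpb. Its arrays were at 12.55, 12.49 and 12.66 in BAT at 6°C, against 12.04, 11.88 and 11.91 in BAT at 28°C. All cold BAT arrays lay above all others of the series, and the 6°C minus 28°C difference was 0.62 ± 0.18 (95% interval 0.24 to 1.01), with an adjusted p of 0.036 that missed the threshold. Atf5 was at 11.95, 11.89 and 11.92 in sWAT at 6°C, against 11.28, 11.52 and 11.89 in sWAT at 28°C. In mWAT it was at 11.10, 10.81 and 11.40 at 6°C, against 10.89, 10.66 and 11.26 at 28°C. The differences were 0.36 ± 0.18 in sWAT and 0.16 ± 0.18 in mWAT, with adjusted p-values of 0.45 and 1. BAT exceeded mWAT 2.76-fold at 6°C (adjusted p 1.2e-05) and 2.01-fold at 28°C (0.00045), and both calls held under every alternative run, with log2 differences of 1.61 ± 0.16 and 1.17 ± 0.16 without both mWAT arrays 3. Against sWAT at 6°C the BAT arrays lay above without overlap, and the difference of 0.65 ± 0.18 (0.012) just missed the threshold. It passed in 13 alternatives, at 0.0027 with median centring and 0.003 without both mWAT arrays 3. Those 13 include the looser threshold of 0.05 and the mean of a gene's probe sets, which for Atf5 is the same probe set. At 28°C BAT and sWAT overlapped and differed by 0.38 ± 0.18 (0.11). sWAT exceeded mWAT 1.76-fold at 6°C (0.0067; 0.97 ± 0.16, 0.0014, without both mWAT arrays 3), a call lost in 10 of the 26 alternatives, at adjusted p-values of at most 0.048; these were the fit of the 2 groups alone and single omissions of BAT 6°C array 1, BAT 28°C array 2 or 3, any of the 3 sWAT 6°C arrays, mWAT 6°C array 1 or 2, and mWAT 28°C array 1. At 28°C the sWAT minus mWAT difference of 0.62 ± 0.18 (0.042) became 0.78 ± 0.16 (0.0071) without both mWAT arrays 3. Over the 18 arrays, which share the 6 group means, Cebpb and Atf5 had r = 0.94, and r = 0.70 once group means were removed. Both followed the mean of 9 brown adipocyte genes, at r = 0.91 for Cebpb and 0.90 for Atf5, a list that was itself at 12.21 to 12.26 in BAT at 6°C, 11.48 to 11.60 in BAT at 28°C, 10.28 to 10.57 in sWAT at 6°C and 8.11 to 8.75 in sWAT at 28°C. Within groups these correlations were 0.47 and 0.59. The mean of 8 endothelium genes gave r = 0.85 for Cebpb and 0.91 for Atf5, and 0.4 and 0.61 within groups.

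Klf15, which helps to induce Pparg and glucose transport during fat cell differentiation and answers to glucocorticoids and fasting, was the one member whose cold arrays lay above its warm arrays in all 3 depots. Of all genes, 19.9% did so in BAT, 13.1% in sWAT and 4.73% in mWAT. The share that did so in all 3 depots was not counted. BAT gave 10.47, 10.70 and 10.94 at 6°C, against 9.44, 10.15 and 9.81 at 28°C. sWAT gave 10.51, 10.69 and 11.09 at 6°C, against 9.50, 10.00 and 10.21 at 28°C. mWAT gave 10.59, 10.51 and 10.37 at 6°C, against 9.50, 9.46 and 10.33 at 28°C. The gap was narrowest in mWAT, where warm array 3 came close to the lowest cold array. The differences were 0.90 ± 0.26 in BAT (1.87-fold, adjusted p 0.033), 0.86 ± 0.26 in sWAT (1.82-fold, 0.13) and 0.73 ± 0.26 in mWAT (1.65-fold, 1), and none passed on its own. Averaged over depots Klf15 rose by 0.83 ± 0.15 (95% interval 0.51 to 1.15, 1.78-fold, adjusted p 0.0035), with adjusted p-values of 0.00082 to 0.0098 over the alternatives run. This contrast was added after the values had been seen. It and its alternatives treat the arrays as independent although depots share mice, so its standard error may be too small. The responses of the depots differed by 0.04 ± 0.36 for BAT against sWAT (95% interval -0.74 to 0.82), 0.18 ± 0.36 for BAT against mWAT (-0.60 to 0.96) and 0.14 ± 0.36 for sWAT against mWAT (-0.64 to 0.91), intervals too wide to tell equal responses from unequal ones. Without both mWAT arrays 3 the mWAT difference was 1.07 ± 0.27 (adjusted p 0.4). Depots at one temperature differed by -0.10 to 0.27, and no depot comparison passed for Klf15.

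The promoters of these 3 factors are printed because, on the probe set that stands for each gene, Cebpb and Klf15 had the largest 6°C minus 28°C differences in BAT, and because Atf5 follows Cebpb across arrays, and because cAMP acts on promoters through CREB and ATF proteins. Each runs 5′ to 3′ on the strand of its gene from 250 bases before the start to 50 bases after it, as RefSeq annotates it on GRCm38.p6. Capitals mark TGACG, the core of the cAMP response element, or CGTCA, the same site on the opposite strand; both strands were searched.
Cebpb, chr2:167688665-167688964, plus strand: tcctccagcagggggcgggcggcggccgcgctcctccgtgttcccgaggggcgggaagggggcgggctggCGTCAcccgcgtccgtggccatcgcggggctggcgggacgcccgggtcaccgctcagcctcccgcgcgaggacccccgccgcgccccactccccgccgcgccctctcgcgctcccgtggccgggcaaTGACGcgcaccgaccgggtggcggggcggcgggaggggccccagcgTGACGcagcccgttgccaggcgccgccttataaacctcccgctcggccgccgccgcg
Klf15, chr6:90462326-90462625, plus strand: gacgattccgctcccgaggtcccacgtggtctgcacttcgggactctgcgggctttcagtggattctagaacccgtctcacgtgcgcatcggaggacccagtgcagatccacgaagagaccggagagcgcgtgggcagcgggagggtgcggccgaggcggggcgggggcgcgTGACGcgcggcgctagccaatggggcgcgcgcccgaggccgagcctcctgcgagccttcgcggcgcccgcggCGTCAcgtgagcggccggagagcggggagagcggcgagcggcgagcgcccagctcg
Atf5 promoter 1, chr7:44815609-44815908, minus strand: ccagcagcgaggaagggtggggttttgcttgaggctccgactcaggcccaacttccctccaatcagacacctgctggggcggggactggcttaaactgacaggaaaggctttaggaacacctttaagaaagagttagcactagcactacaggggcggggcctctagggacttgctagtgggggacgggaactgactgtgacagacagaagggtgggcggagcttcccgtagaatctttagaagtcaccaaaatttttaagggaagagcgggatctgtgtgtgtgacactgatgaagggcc
Atf5 promoter 2, chr7:44816609-44816908, minus strand: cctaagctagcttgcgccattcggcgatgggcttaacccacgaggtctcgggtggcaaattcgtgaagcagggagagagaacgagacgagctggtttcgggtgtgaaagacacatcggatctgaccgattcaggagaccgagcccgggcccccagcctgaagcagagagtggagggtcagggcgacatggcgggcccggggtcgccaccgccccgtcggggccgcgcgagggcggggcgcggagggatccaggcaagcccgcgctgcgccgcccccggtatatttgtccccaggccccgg
The Cebpb window holds 3 such cores, at -180, -53 and -7 bases from the start, the Klf15 window holds 2, at -78 and -6, and neither Atf5 window holds one. The core is common, found in 20.8% of 32851 RefSeq promoters of this length, and the full element TGACGTCA, found in 1.79%, is in none of the members' windows. Promoter sequences were used for 7 of the 10 members, with 10 windows in all, and Bcl6 promoter 2 was the other window with the core. Bcl6 promoter 1 holds 3 matches to the STAT motif TTCNNNGAA, which 8.3% of promoters hold. A match says only that these letters occur in the window.

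Cebpa, which maintains the mature fat cell, varied least, with a range of group means of 0.42 log2 units. It was at 13.43, 13.44 and 13.40 in BAT at 6°C, against 13.60, 13.56 and 13.53 in BAT at 28°C. In sWAT it was at 13.43, 13.63 and 13.57 at 6°C, against 13.37, 13.24 and 13.46 at 28°C, and in mWAT at 13.35, 13.38 and 13.43 at 6°C, against 13.08, 13.19 and 13.18 at 28°C. The cold arrays lay below the warm ones in BAT and above them in mWAT, without overlap in either, and overlapped in sWAT. The differences of -0.14 ± 0.10 in BAT, 0.19 ± 0.10 in sWAT and 0.24 ± 0.10 in mWAT had adjusted p-values of 0.39, 0.47 and 1. Cebpa was 1.33-fold higher in BAT than in mWAT at 28°C (0.42 ± 0.10, adjusted p 0.0029; 0.43 ± 0.11, 0.0051, without both mWAT arrays 3), a call lost without BAT 28°C array 1, BAT 28°C array 2 or mWAT 28°C array 1, at adjusted p-values of 0.013, 0.01 and 0.016. At 6°C that difference was 0.03, with an adjusted p of 0.78.

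Cebpd, the partner of Cebpb at the start of differentiation, ran the other way between depots. It was at 8.20, 8.49 and 8.41 in BAT at 6°C and 8.26, 8.49 and 8.44 in BAT at 28°C, and temperature separated no arrays (-0.03 ± 0.16, adjusted p 0.95). sWAT had 9.16, 9.35 and 8.85 at 6°C and 9.45, 9.08 and 9.21 at 28°C, and mWAT had 8.79, 9.15 and 9.16 at 6°C and 9.07, 8.70 and 8.95 at 28°C. Every BAT array was below every white fat array. Cebpd was lower in BAT than in sWAT by 0.75 ± 0.16 at 6°C (adjusted p 0.0022) and 0.85 ± 0.16 at 28°C (0.00085), and lower than in mWAT by 0.67 ± 0.16 at 6°C (0.0033). The 28°C call against sWAT held under every alternative run. The call against sWAT at 6°C was lost without BAT 6°C array 1 or sWAT 6°C array 2, at adjusted p-values of 0.013 and 0.014. The call against mWAT at 6°C was lost in 7 alternatives, among them the omission of BAT 6°C array 1 (0.018), mWAT 6°C array 2 (0.016), mWAT 6°C array 3 (0.013) or both mWAT arrays 3 (-0.60 ± 0.18, 0.015) and median centring (-0.47 ± 0.16, 0.023). The other Cebpd probe set passed in all 4 comparisons of BAT with white fat, by -0.83 to -1.18. Macrophage genes moved with Cebpd, at a list mean of 8.62 to 8.91 in BAT at 6°C, 8.89 to 9.21 in BAT at 28°C and 9.82 to 10.40 in white fat, with r = 0.88 to Cebpd over the 18 arrays and 0.38 within groups, and their part in the depot difference was not tested.

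Klf5, switched on by CEBPB and CEBPD in early differentiation and able to activate Pparg, was likewise lowest in BAT. Its arrays were at 5.89, 5.78 and 5.85 in BAT at 6°C and 5.57, 5.79 and 6.73 in BAT at 28°C, below the array medians. sWAT had 7.97, 7.84 and 7.53 at 6°C and 7.78, 8.35 and 8.10 at 28°C, and mWAT had 7.19, 7.04 and 7.80 at 6°C and 6.84, 6.69 and 7.72 at 28°C. BAT and sWAT did not overlap, whereas BAT 28°C array 3 fell among the mWAT arrays. BAT was 3.83-fold lower than sWAT at 6°C (adjusted p 0.00025) and 4.13-fold lower at 28°C (0.00014), and 2.83-fold lower than mWAT at 6°C (0.0011), and these calls held under every alternative run, the last at -1.28 ± 0.28 (0.0018) without both mWAT arrays 3. Since the BAT signals lie in the dim range, these folds are less certain than their direction. At 28°C the difference from mWAT of -1.05 ± 0.31 (0.014) missed the threshold. sWAT minus mWAT at 28°C, 0.99 ± 0.31 (0.058), became 1.31 ± 0.28 (0.0078) without both mWAT arrays 3. The temperature differences of -0.19 in BAT, -0.30 in sWAT and 0.26 in mWAT, each ± 0.31, did not pass. Both dimmer Klf5 probe sets lay below the array medians. The one with r = 0.84 to the brightest gave smaller differences of BAT from sWAT, -1.15 ± 0.20 (0.00044) at 6°C and -0.77 ± 0.20 (0.0074) at 28°C. Against mWAT at 6°C it gave -0.84 ± 0.20 (0.0028). The one with r = 0.32 passed in no comparison. It gave -0.70 ± 0.39 (0.17) and -0.23 ± 0.39 (0.68) against sWAT at 6°C and 28°C, and -0.13 ± 0.39 (0.80) against mWAT at 6°C. Genes of adipose progenitors and fibroblasts moved with Klf5, at a list mean of 9.87 to 10.57 in BAT at 6°C, 10.55 to 10.99 in BAT at 28°C, 11.35 to 11.72 in sWAT at 6°C and 11.74 to 11.84 in sWAT at 28°C. Klf5 had r = 0.90 with them over the 18 arrays and 0.60 within groups. Mammary epithelium, part of the inguinal pad in female mice, gave list means of 11.16 to 11.33 in sWAT at 6°C and 11.60 to 12.14 in sWAT at 28°C against at most 7.49 elsewhere, with r = 0.81 to Klf5. The part of either cell type in the Klf5 difference was not tested.

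Bcl6 was highest in BAT at 28°C. It was at 12.36, 12.64 and 11.95 in BAT at 6°C, against 12.98, 12.83 and 13.03 in BAT at 28°C. On this probe set all cold arrays lay below the warm ones, array 3 farthest. The difference of -0.63 ± 0.19 (95% interval -1.04 to -0.21) missed the threshold at an adjusted p of 0.047, and without BAT 6°C array 3 it was -0.44 ± 0.20 (0.2). That array had a pancreas acinar list mean of 10.64, against 6.54 and 5.87 on the other cold BAT arrays and 4.96 to 5.26 in BAT at 28°C; Bcl6 and that list had r = -0.70 within groups. The dimmer probe set overlapped between temperatures in BAT, with a difference of -0.56 ± 0.26 (0.19). In sWAT the arrays were at 12.12, 11.82 and 11.74 at 6°C and 12.26, 12.24 and 11.88 at 28°C, and in mWAT at 11.69, 11.53 and 11.81 at 6°C and 11.63, 12.24 and 12.12 at 28°C, overlapping in both, with differences of -0.23 ± 0.19 and -0.32 ± 0.19. At 28°C Bcl6 was higher in BAT than in sWAT by 0.82 ± 0.19 (adjusted p 0.0042) and than in mWAT by 0.95 ± 0.19 (1.93-fold, 0.0012; 1.01 ± 0.22, 0.0024, without both mWAT arrays 3), and its dimmer probe set passed in both, at 1.5 ± 0.26 and 1.53 ± 0.26. The call against sWAT was lost without BAT 28°C array 1, BAT 28°C array 3 or sWAT 28°C array 3, at adjusted p-values of 0.016, 0.017 and 0.021. At 6°C the main probe set gave 0.42 ± 0.19 against sWAT (0.098) and 0.64 ± 0.19 against mWAT (0.013), while the dimmer one gave 0.86 ± 0.26 against sWAT (0.018) and passed against mWAT, at 1.24 ± 0.26 (0.0013).

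Zfp423, the commitment factor that in mature white fat cells also restrains the brown programme through EBF2, was highest in BAT. BAT had 9.04, 9.01 and 9.06 at 6°C, against 9.13, 9.11 and 9.41 at 28°C, and sWAT had 8.95, 8.71 and 8.85 at 6°C, against 8.35, 8.15 and 8.68 at 28°C. mWAT had 8.07, 8.48 and 8.57 at 6°C, against 8.01, 8.09 and 8.05 at 28°C. The cold arrays lay below the warm ones in BAT and above them in sWAT, and overlapped in mWAT. The differences were -0.18 ± 0.15 in BAT, 0.44 ± 0.15 in sWAT and 0.32 ± 0.15 in mWAT, with adjusted p-values of 0.52, 0.21 and 1. At 28°C BAT was 1.77-fold above sWAT (adjusted p 0.00078) and 2.25-fold above mWAT (2.8e-05), and at 6°C it was 1.59-fold above mWAT (0.0024), a call lost without mWAT 6°C array 1 (0.52 ± 0.15, 0.015). Without both mWAT arrays 3 these differences from mWAT were 0.77 ± 0.17 (0.002) at 6°C and 1.17 ± 0.17 (1e-04) at 28°C. BAT and sWAT at 6°C differed by 0.20 ± 0.15 (0.32). Over the 18 arrays Zfp423 followed the brown adipocyte list at r = 0.92, and at 0.51 within groups. It followed the endothelium list as closely, at r = 0.93 and 0.62, and the part of either cell type was not tested. Of 16 genes of ZFP423 partners and BMP signalling, 3 were higher and 5 lower in BAT than in mWAT at 28°C, beside 17.7% and 14.8% of all genes. The brown fat factor Ebf2 was among the higher genes, by 3.22 ± 0.25, and Bmp4, a ligand that acts on precursors, among the lower, by -3.22 ± 0.33. In the cold BAT had Bmp8b, a signal that sensitises brown fat to its nerves, higher by 4.20 ± 0.29 (adjusted p 1.9e-06) and Smad1, which relays BMP signals, lower by 0.74 ± 0.14 (0.0038), in a list whose median was -0.06.

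Zfp516 is a cold-inducible zinc-finger factor that binds the Ucp1 promoter with PRDM16. On its brighter probe set Zfp516 was highest in mWAT, the depot with the least Ucp1. Its arrays were at 9.90, 10.07 and 10.06 in BAT at 6°C and 10.00, 9.92 and 9.66 in BAT at 28°C, and at 9.87, 9.95 and 10.02 in sWAT at 6°C and 9.78, 10.11 and 10.01 in sWAT at 28°C. mWAT had 10.45, 10.81 and 10.96 at 6°C and 10.85, 10.61 and 11.17 at 28°C, above every BAT and sWAT array. Zfp516 was lower in BAT than in mWAT by 0.73 ± 0.16 at 6°C (adjusted p 0.0019) and 1.02 ± 0.16 at 28°C (0.00017), and lower in sWAT than in mWAT by 0.80 ± 0.16 at 6°C (0.0039) and 0.91 ± 0.16 at 28°C (0.0016). Without both mWAT arrays 3 the BAT values were -0.62 ± 0.15 (0.0043) and -0.87 ± 0.15 (0.00049) and the sWAT values -0.69 ± 0.15 (0.0079) and -0.76 ± 0.15 (0.0057) at 6°C and 28°C. Temperature differences on this probe set were 0.15 in BAT, -0.02 in sWAT and -0.13 in mWAT, each ± 0.16. The dimmer Zfp516 probe set gave another picture in BAT, with 6.85, 7.48 and 7.35 at 6°C against 6.71, 6.23 and 5.84 at 28°C. Its arrays did not overlap, the difference of 0.97 ± 0.25 had an adjusted p of 0.021, and BAT exceeded mWAT by 0.24 ± 0.25 (0.45) at 6°C where the brighter probe set had it lower. The dimmer probe set had its highest group mean in BAT at 6°C, 7.23, against 6.99 and 7.1 in mWAT at 6°C and 28°C. It passed for BAT against sWAT at 6°C, at 0.97 ± 0.25 (0.0074), where the brighter probe set gave 0.07 ± 0.16 (0.77). Against mWAT it passed in no comparison, at -0.83 ± 0.25 (0.016) for BAT at 28°C. For sWAT it gave -0.74 ± 0.25 (0.068) at 6°C and -1.02 ± 0.25 (0.017) at 28°C. The mean of both probe sets put BAT against mWAT at 6°C at -0.25 ± 0.19 (0.28), so that call rests on the choice of probe set. That mean also lost the call of sWAT against mWAT at 6°C, at -0.77 ± 0.19 (0.01). Median centring lost the call of BAT against mWAT at 6°C too, at -0.54 ± 0.17 (0.013). Which transcripts the probe sets read was not tested. The call of sWAT against mWAT at 28°C was lost without sWAT 28°C array 1 (-0.82 ± 0.18, 0.011), and at 6°C without any one of the 3 sWAT 6°C arrays or mWAT 6°C array 2 or 3, at adjusted p-values of 0.011 to 0.019. Neuronal genes moved with Zfp516, at list means of 5.17 to 5.55 in BAT at 6°C, 4.07 to 5.44 in BAT at 28°C, 9.13 to 10.23 in mWAT at 6°C and 9.30 to 10.28 in mWAT at 28°C, with r = 0.92 over the 18 arrays and 0.19 within groups. Mesothelial genes gave r = 0.90 and 0.02, and the part of either was not tested.

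Irf4, induced in fat by fasting and by cAMP, where it works with PGC-1α on thermogenic genes, and also a factor of lymphocytes, had 34.2% of its variance between the 6 groups, the least of the members, against 71.1% to 90.3% for the other 9. BAT had 11.09, 10.99 and 10.78 at 6°C, against 11.66, 11.48 and 11.40 at 28°C, all cold arrays below all warm ones, with a difference of -0.56 ± 0.33 and an adjusted p of 0.32. sWAT had 11.17, 11.92 and 11.53 at 6°C, against 11.42, 11.09 and 11.16 at 28°C, and mWAT had 11.98, 12.27 and 10.91 at 6°C, against 11.57, 11.57 and 10.44 at 28°C. The groups overlapped in both white depots, and array 3 was the lowest of each mWAT group by over 1 log2 unit. Those are the arrays on which the T cell and B cell lists are low, at 6.93 and 6.61 at 6°C and 6.97 and 6.54 at 28°C. Within groups Irf4 had r = 0.92 with the T cell list and 0.89 with the B cell list. Over the 18 arrays, with group means kept, these were 0.55 and 0.56. The correlations were not computed without both mWAT arrays 3, so how far those arrays carry them was not tested. BAT minus mWAT at 6°C was -0.77 ± 0.33 (0.068) on all arrays, -1.18 ± 0.30 (0.0048) without mWAT 6°C array 3 and -1.18 ± 0.20 (0.00024) without both arrays 3, and at 28°C it was 0.32 ± 0.33 (0.47) and -0.06 ± 0.20 (0.84) without both. The dimmer Irf4 probe set, below the array medians, had r = 0.43 with the brighter one. On it BAT overlapped between temperatures, at -0.45 ± 0.36 (0.48), and BAT minus mWAT at 6°C was 0.08 ± 0.36 (0.86). The share of lymphocyte RNA in the Irf4 signal was not tested. Of 7 interferon regulatory factors, 0 passed between temperatures in any depot, and Irf8, a factor of macrophages and B cells, was lower in BAT than in sWAT (-3.00 ± 0.75, adjusted p 0.0063) and than in mWAT (-2.93) at 28°C.

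**Figure D4:**
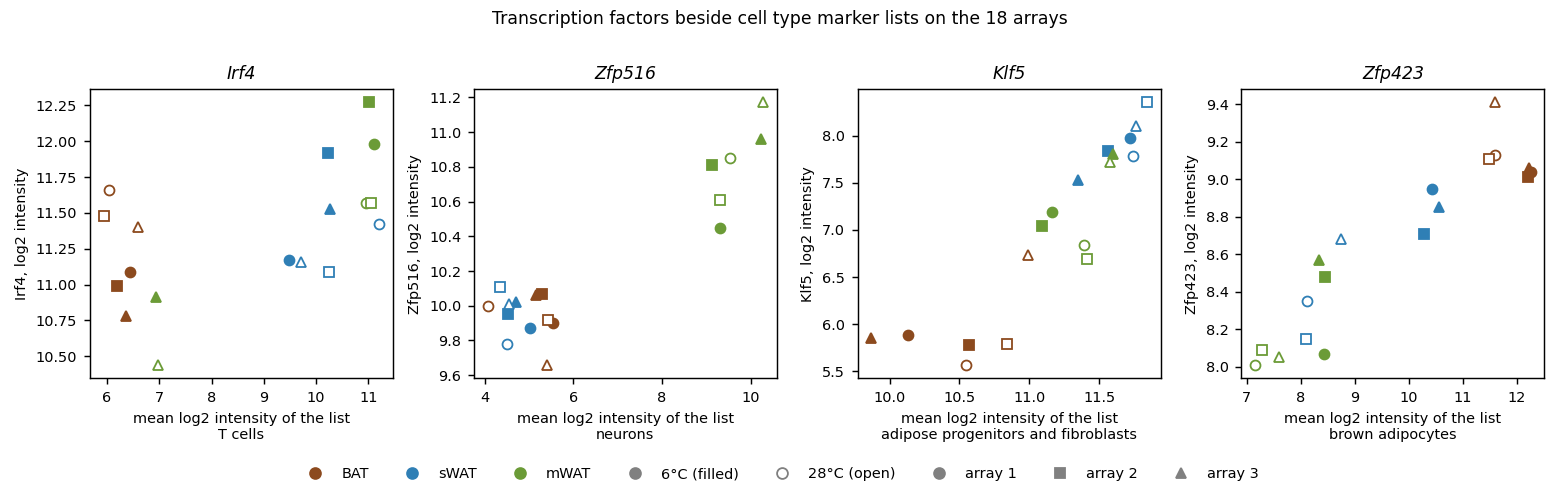
Log2 intensity of 4 factors on the 18 arrays against the mean log2 intensity of a cell type marker list, with colour for depot and filled points for 6°C. Irf4 is lowest in mWAT on the arrays numbered 3, where the T cell list is low (r = 0.92 over the 18 arrays after removal of group means and 0.55 before), while Zfp516 against neuronal genes separates the depots and has r = 0.19 within groups.

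Related genes were counted in lists beside the members. Among 18 genes of the C/EBP, ATF and CREB family, 0 passed between temperatures in BAT or mWAT, and in sWAT the clock-controlled factor Dbp rose by 2.38 ± 0.36 (adjusted p 0.0034) and the bZIP repressor Nfil3 fell by 1.30 ± 0.20 (0.0035). Among 14 Krüppel-like factors, Klf6 fell by 0.72 ± 0.11 in cold BAT (0.00094), Klf1 passed as lower too but at signals below the array medians, where its size is not measured, and none passed in either white depot; averaged over depots, Klf11 rose by 0.78 ± 0.15 (0.0049) and Klf10 by 0.52 ± 0.11 (0.0084) beside Klf15, which that list leaves out, and Klf6 fell by 0.32 ± 0.07 (0.008). Of 10 reported KLF15 targets, 2 rose in sWAT, Fabp3, which carries fatty acids, by 3.30 ± 0.30 and Pdk4, which restrains glucose oxidation, by 1.30 ± 0.14, and 0 passed in BAT or mWAT. Pdk4 was also the 1 of 15 glucocorticoid-induced genes that rose in sWAT, where BAT had 2, Mt2 by 2.65 and Sgk1 by 0.99, and mWAT 0. Among 14 early genes induced by cAMP, cold BAT had the nuclear receptors Nr4a3 (1.69 ± 0.35, 0.0061) and Nr4a2 (1.29 ± 0.28, 0.0071) and the kinase Sik1 (1.24 ± 0.15, 0.00013) higher and Jun (-0.92 ± 0.16, 0.0021) lower, and neither white depot had any. The 9 growth hormone and STAT5 genes included 2 lower in cold BAT, Cish (-1.67 ± 0.37, 0.0091) and Igf1 (-1.27 ± 0.26, 0.0058), and 0 in white fat.

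Genes of the mitochondrial unfolded protein response, which ATF5 serves in mammalian cells, were mostly higher in BAT than in white fat. Of 10 such genes, 7 were higher in BAT than in sWAT and 7 than in mWAT at 28°C, where 14.5% and 17.7% of all genes were, with list medians of 0.69 and 0.85 beside 0.08 over all genes in each; the protease Clpx was higher by 1.44 and 1.74 and Lonp1 by 0.99 and 1.35. Between sWAT and mWAT 0 passed at 28°C and 1 at 6°C. None of the 10 passed between temperatures in any depot, and their median differences were 0.13, 0.30 and 0.08 in BAT, sWAT and mWAT. The 15 integrated stress response genes had only Phgdh, of serine synthesis, lower in cold BAT (-1.75 ± 0.30, 0.0019). Of 29 other adipogenic factors 3 fell in cold BAT, Zfp521, an opponent of ZFP423, by 1.33 ± 0.24 (0.0028), the HLH inhibitor Id2 by 0.84 (0.0067) and Klf6, and Pparg was higher in BAT than in mWAT at 28°C by 1.51 ± 0.14 (1.1e-06). Of 27 thermogenic regulators 2 rose in cold sWAT, Ppara by 3.01 ± 0.27 (7.7e-05) and Esrrg by 1.51 ± 0.20 (0.0015), against 8 of 10 thermogenic effector genes there, 1 of 10 in BAT and 1 of 10 in mWAT. White adipocyte effector genes numbered 16, of which 1, the hormone gene Lep, fell in cold BAT, by 2.76.

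The genes whose signal ran most like each member over the 18 arrays, by Pearson's r among 9087 candidate genes, are given as a description, since arrays of one group share depot and temperature. Cebpb ran with Cxcl14, Ucp3 and Slc35f6, each at r = 0.97, and Atf5 with Cptp (0.98) and Pcyt2 (0.98). Klf5 ran with Krt8, a keratin of simple epithelia (0.97), Col16a1 (0.96) and the macrophage receptor gene Cd163 (0.96). Zfp423 ran with Hagh, Prkar2b and Rabepk at 0.96, Zfp516 with Nt5dc3 and Smpd2 at 0.96, Cebpd with Kdelr3, Pgghg and Lbp at 0.93, and Bcl6 with Las1l at 0.93. Likeness was weaker for Cebpa, with Angptl4 (0.88), Irf4, with Wrn (0.88), and Klf15, with the aquaporin gene Aqp11 (0.87). Among pairs of members, Cebpd and Klf5 had r = 0.87 over all arrays but 0.18 within groups, and Zfp423 and Zfp516 had -0.69 and 0.12.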

How the data were processed

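Total RNA from each depot was amplified, biotin labelled and hybridised to Affymetrix mouse arrays. The deposited values are linear intensity values that the authors background adjusted, summarized and normalized with Bioconductor; the algorithm is not given in the sources used here, and the methods name a smaller array than the 45101 probe sets of the table. Log2 intensities of 45037 non-control probe sets were fitted with limma 3.58.1 (R 4.3.3) as 6 group means, and moderated p-values were adjusted by Benjamini-Hochberg within each contrast, with calls at an adjusted p below 0.01. The code was tested on simulated data. Gene names came from the platform annotation, in which 34945 probe sets name 1 gene, 932 several and 9160 none, and the probe set with the highest mean stands for a gene. Every member was named in full; other genes were named as passing members of the lists or as the most alike by r. Marker list means average the log2 values of the listed genes. Alternatives were the groups compared fitted alone, quantile normalization, median centring, a filter that kept the 26097 probe sets with a group mean above 7.12, all 10 members among them, other probe set rules, moderation settings, another threshold and omission of arrays. Members and gene lists were chosen with earlier results of these data known. The number of arrays, 3 per group, limits the precision.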

Additional observations from a re-analysis of the deposited data

Results flagged for a closer look

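For 2 members the arrays of 2 depots moved in opposite directions with temperature, without overlap, while the test of the difference did not pass. Of all genes, 19.9% lay lower at 6°C without overlap in BAT, and 13.1% lay higher in sWAT and 4.73% in mWAT. The share of genes with both patterns was not counted. Zfp423 at 6°C lay below its 28°C arrays in BAT and above them in sWAT, and the BAT response minus the sWAT response was -0.62 ± 0.22 (limma, adjusted p 0.19). Cebpa at 6°C lay below its 28°C arrays in BAT and above them in mWAT, with a BAT minus mWAT response of -0.38 ± 0.13 (adjusted p 0.17).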

How the results depend on the processing

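Of the 23 calls of members in a comparison, 10 held under every alternative run, and no called value reversed. Of 107 uncalled values 16 passed in some alternative, some of them only at the looser threshold of 0.05. At an adjusted p of 0.05 the number of members past the threshold became 4 for the cold response of BAT, 2 for sWAT against mWAT at 28°C and 4 for the mean cold response, with 12.2%, 12.7% and 9.48% of all genes. With only the groups compared in the fit it was 3 for BAT against mWAT at 28°C and at 6°C (20.3% and 24.3% of all genes), and 0 for sWAT against mWAT at both temperatures (3.19% and 3.63%). With the mean of a gene's probe sets it was 1 for the cold response of BAT (6% of all genes) and 1 for sWAT against mWAT at 6°C (11.3%), and counting any probe set, chosen after seeing the data, it was 1 for the cold response of BAT (8.34%) and 2 for the mean cold response (5.16%). Without both mWAT arrays 3, also chosen after seeing the data, it was 3 for sWAT against mWAT at 28°C (7.53%). Leaving out single arrays gave 0 to 1 for the cold response of BAT, 3 to 5 and 5 to 7 for BAT against sWAT and mWAT at 28°C, 1 to 4 and 5 to 7 for the same at 6°C, 0 to 1 and 0 to 2 for sWAT against mWAT at 28°C and 6°C, and 0 for the cold response of either white depot and for every difference of responses. The fit of 2 groups alone has fewer arrays; otherwise the cause was not tested. No paired analysis was possible because depots share animals but the labels give no replicate numbers and the numbers used here only name arrays. Klf5 in BAT and the dimmer probe sets of Klf5, Irf4 and Zfp516 lie near or below the array medians, where size is least certain.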
